A study of Mus musculus with 8 samples.

Results

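The membrane sector of the vacuolar proton pump (V0) and its accessory subunits were described in the small intestine of mouse fetuses lacking the zinc finger transcription factor Plagl2, set against wild-type fetuses. The members were chosen by gene symbol: Atp6v0a1, Atp6v0a2, Atp6v0a4, Tcirg1, Atp6v0b, Atp6v0c, Atp6v0d1, Atp6v0d2, Atp6ap1 and Atp6ap2. Of these 10 genes, 9 had at least 1 probe set annotated with that symbol alone, out of 18193 genes so annotated on the array, and together they had 19 probe sets. Atp6v0c, which encodes the main proteolipid of the V0 ring, had no probe set listed under its symbol and was not analysed here. The family was picked from the knockout over wild-type values of these same arrays, which had been seen before, so the values of its members are a description of that comparison and carry no p-value.

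Small intestines came from 4 Plagl2 knockout fetuses and 4 wild-type fetuses at 18.5 dpc (days post coitum), and each was read on 1 Affymetrix MOE430 2.0 array. The labels used here give no strain, allele, sex or litter, so biological and technical parts of the spread between samples cannot be told apart. The extraction text of all 8 samples names wild-type intestine, whereas titles and the series design give 4 knockouts. On the arrays, Plagl2 (1417517_at) gave signals of 3, 6, 5 and 11 in knockouts, against 824, 817, 697 and 796 in wild-types, so the arrays follow the titles.

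A vacuolar proton pump is a rotary enzyme of endosomes, lysosomes, the Golgi apparatus and some plasma membranes. Its V1 sector, in the cytosol, splits ATP and turns a ring of proteolipids in the V0 sector, which carries protons across the membrane past the a subunit. The a subunit exists as isoforms that are known for different places: a1 in nerve terminals, a2 in the Golgi and endosomes, a3 (Tcirg1) in lysosomes and the ruffled border of osteoclasts, and a4 in acid-secreting cells of the kidney. Late fetal and suckling enterocytes of rodents take up luminal protein into large acidic vacuoles, where lysosomal enzymes digest it.

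Signals are the authors' linear values, and changes are differences of log2(signal + 16), and for dim genes the added 16 makes them smaller than the ratio of the signals. A probe set or gene was called when the Benjamini-Hochberg adjusted p of the limma fit over all 27022 tested probe sets was under 0.05. Of the 19 member probe sets, 16 belonging to 7 genes were bright enough to be tested. Among the 16, 3 were called higher and 8 lower in knockouts, where 5.28% of all tested probe sets were called higher and 6.7% lower. The groups did not overlap in 12 of the 16, against 17% of all tested probe sets. The median log2 fold change of the 16 was -0.37, with a range of -1.55 to 0.67, and that of all tested probe sets was 0.03. The isoforms of the a subunit spanned this whole range. The 3 probe sets higher in knockouts were those of Atp6v0a2, and the lowest value was that of Tcirg1. The other tested members, Atp6v0b, Atp6v0d1, Atp6ap1 and Atp6ap2, had 5 of their 8 probe sets called lower and none higher.

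**Figure D1:**
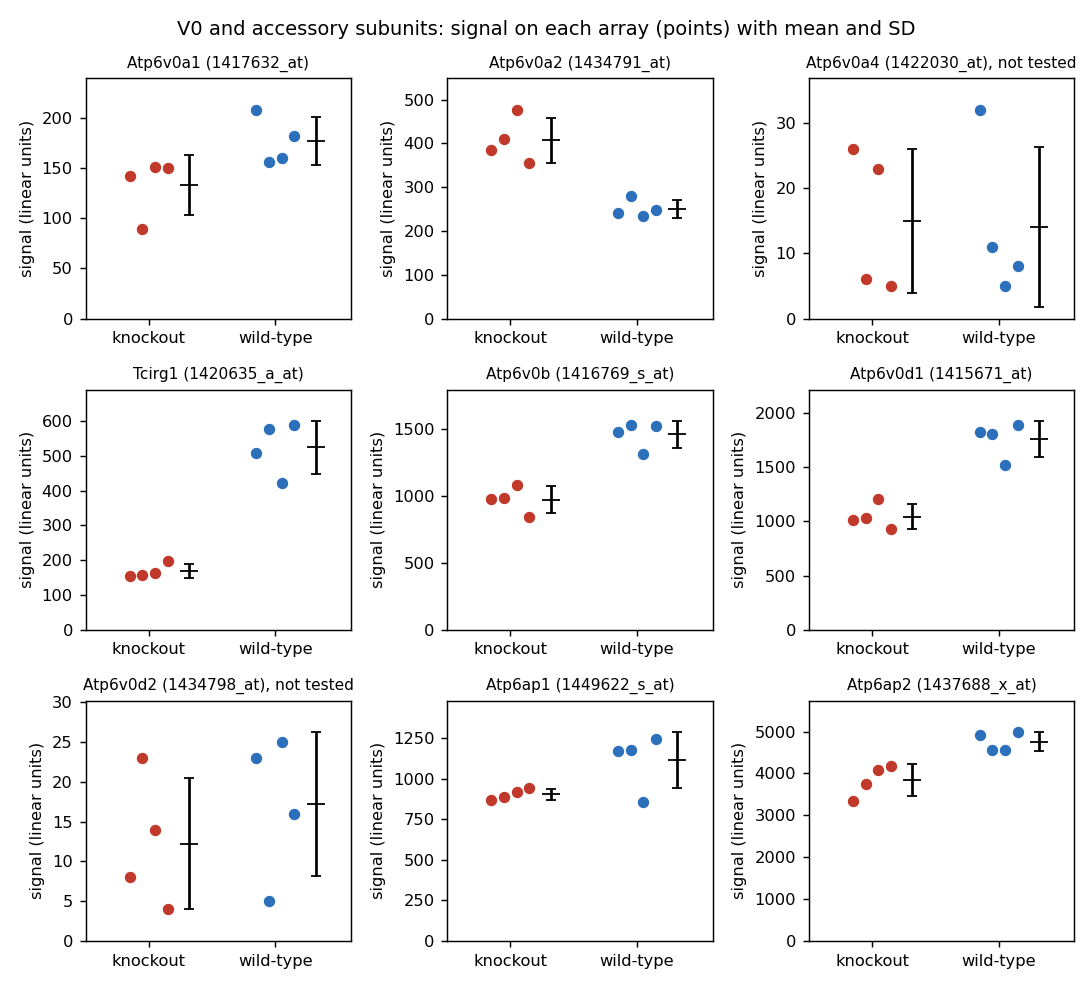
Signal on a linear scale on each array for the brightest probe set of each of the 9 members with a probe set, knockout at left (red) and wild-type at right (blue), with the group mean and SD (n = 4) beside the points. Tcirg1 lies at 155 to 197 in knockouts against 423 to 589 in wild-types, Atp6v0a2 is higher in all 4 knockouts, and Atp6v0a4 and Atp6v0d2 stay at or under 32 on every array.

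Atp6v0a2, the a2 isoform, was higher in knockouts. Its brightest probe set (1434791_at) gave 385, 410, 477 and 356 in knockouts, against 241, 280, 235 and 248 in wild-types. All 4 knockouts lay above all 4 wild-types. The group means were 407 ± 51.6 in knockouts and 251 ± 20.05 in wild-types (SD, n = 4 each), a log2 fold change of 0.66 ± 0.12 (SE). A second probe set (1449870_a_at) had 382, 429, 483 and 322 in knockouts, against 229, 280, 232 and 245 in wild-types. The third (1424513_at) had 280 to 341 in knockouts, against 194 to 211 in wild-types. The log2 fold changes of these other probe sets were 0.67 ± 0.13 and 0.51 ± 0.11 (SE), so all 3 Atp6v0a2 probe sets were called the same way. None of the 3 was called, at log2 fold changes of 0.53 to 0.62, when the 3' to 5' balance of the control probe sets, which also differed between the groups, entered the fit.

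Tcirg1, the a3 isoform of lysosomes and of bone-resorbing osteoclasts, had the largest change of the family. Its probe set (1420635_a_at) gave 155, 157, 164 and 197 in knockouts, against 509, 576, 423 and 589 in wild-types. All 4 knockouts lay far below all 4 wild-types, of which replicate 3 was the lowest. The means were 168.25 ± 19.6 in knockouts and 524.25 ± 76.1 in wild-types (SD, n = 4 each), a log2 fold change of -1.55 ± 0.13 (SE), or 0.34-fold. Tcirg1 is represented by this probe set alone.

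The signals of 10 markers of macrophages, which also use Tcirg1, summed to 1836 to 2417 in knockouts, against 4374 to 6009 in wild-types (exact permutation p = 0.0286, two-sided, adjusted over 10 marker lists 0.286). Of these markers 2 were called lower, the growth factor receptor Csf1r and Adgre1, where 8.5% of all genes tested were called lower. The other 8 were not called, and Lyz2 (0.28), Mrc1 (0.06) and Itgam (0.05) had log2 fold changes above 0. None of the markers was at 0 on all arrays. Csf1r had a mean of 706.75 ± 103 in knockouts and of 3752 ± 635 in wild-types (SD, n = 4 each). Without Csf1r the sum of the other 9 was 1173 to 1559 in knockouts, against 1500 to 1726 in wild-types (exact permutation p = 0.0571). Osteoclast markers summed to 418 to 741 in knockouts, against 643 to 1074 in wild-types (exact permutation p = 0.0571, two-sided, adjusted over 10 marker lists 0.286). Of their 3 tested markers Acp5 was called lower (-0.82), with overlap between the groups. Ctsk (0.27) and Mmp9 (-0.41) were not called, and Calcr, Ocstamp and Dcstamp were too dim to test. In whole intestine, fewer cells of a type and less RNA per cell cannot be told apart, and the part of these cells in the Tcirg1 value was not tested.

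Atp6v0a1, the a1 isoform of nerve terminals, was read by 4 probe sets that differed in size of change. The brightest (1417632_at) gave 142, 89, 151 and 150 in knockouts, against 208, 156, 160 and 182 in wild-types. Its groups did not overlap, by a margin of 151 against 156, and it was not called (log2 fold change -0.39 ± 0.17 SE, and -0.23 without knockout replicate 2). A dimmer probe set (1425227_a_at) had 41, 50, 61 and 46 in knockouts, against 92, 105, 81 and 107 in wild-types, and was called lower (-0.78 ± 0.15 SE). The probe set 1460650_at was also called lower (-0.65 ± 0.19 SE), with 41 to 50 in knockouts against 51 to 102 in wild-types. The last, 1459924_at, overlapped between groups (38 to 69 in knockouts, 46 to 83 in wild-types) and was not called (-0.29 ± 0.21 SE, and -0.18 without wild-type replicate 2). All 4 had a lower mean in knockouts, and the log2 fold change of their mean was -0.53. The call of 1460650_at ended in 13 of 17 alternatives, among them each array left out in turn except wild-type replicate 3.

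Atp6v0a4, the a4 isoform of acid-secreting kidney cells, had 26, 6, 23 and 5 in knockouts, against 32, 11, 5 and 8 in wild-types. These signals lay among the dimmest 40% of probe sets and were not tested.

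**Figure D2:**
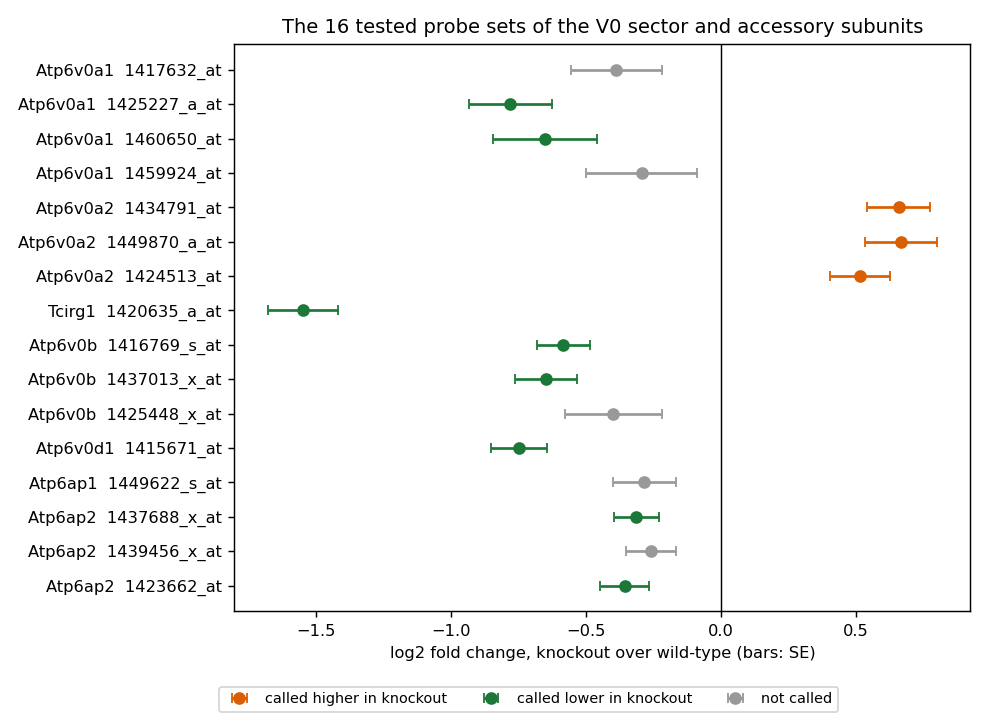
Log2 fold change, knockout over wild-type, of the 16 tested member probe sets, with the standard error of the fit as bars and the gene and probe set at the left. The 3 Atp6v0a2 probe sets lie at 0.51 to 0.67, Tcirg1 at -1.55, and all probe sets of the other members below 0.

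Because signals of different probe sets cannot be set against each other as levels, the isoforms were compared through the change of their log2 difference on the same array. Set against the mean of the 4 tested members that are not a subunits (Atp6v0b, Atp6v0d1, Atp6ap1 and Atp6ap2), Atp6v0a2 had a difference of -1.72 ± 0.10 in knockouts and of -2.86 ± 0.13 in wild-types (SD, n = 4 each). That difference was higher in knockouts by 1.14 ± 0.08 (SE), with no overlap between the groups. Tcirg1 moved the other way relative to the same mean, with -2.91 ± 0.18 in knockouts and -1.85 ± 0.10 in wild-types, a change of -1.07 ± 0.10 (SE), again with no overlap. Atp6v0a1 had -3.24 ± 0.32 in knockouts and -3.33 ± 0.16 in wild-types. Its change of 0.09 ± 0.18 (SE) was within the spread between arrays, and the groups overlapped. This change was 0.25 without knockout replicate 2 and 0.30 on the 6 arrays with low Xist signal. All these differences use the brightest probe set of each gene, which for Atp6v0a1 was not called. The 2 called Atp6v0a1 probe sets, with larger falls, were not set against the other members.

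Between the isoforms, the log2 difference of Atp6v0a2 minus Tcirg1 was 1.23, 1.30, 1.45 and 0.80 in knockouts, against -1.03, -1.0, -0.81 and -1.20 in wild-types. All 4 knockouts were above all 4 wild-types. The change of 2.21 ± 0.16 (SE) was the widest among the pairs of tested isoforms. Atp6v0a1 minus Atp6v0a2 changed by -1.05 ± 0.22 and Atp6v0a1 minus Tcirg1 by 1.16 ± 0.19 (SE). The groups did not overlap in any of these pairs. These differences use the brightest probe set of each isoform and the same contrast as the choice of the family. They were not tested.

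**Figure D3:**
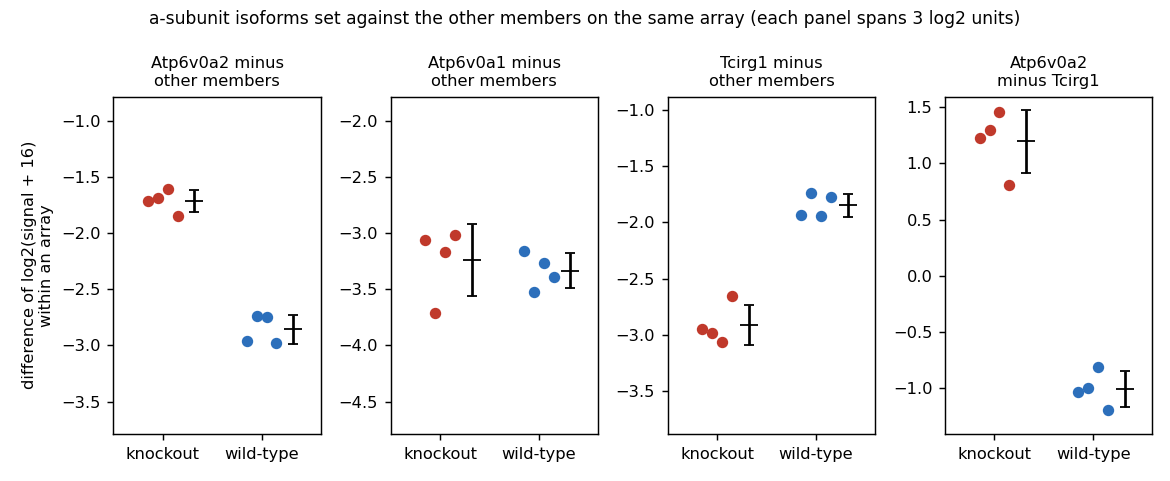
Difference of log2(signal + 16) between probe sets of the same array, for each tested a-subunit isoform minus the mean of Atp6v0b, Atp6v0d1, Atp6ap1 and Atp6ap2, and for Atp6v0a2 minus Tcirg1, with knockout (red) left of wild-type (blue) and the mean and SD (n = 4) beside the points. The groups lie apart in the Atp6v0a2 and Tcirg1 panels and overlap for Atp6v0a1. The height of a panel's zero has no meaning as a level. Each gene is read by its brightest probe set.

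Atp6v0b encodes a minor proteolipid of the V0 ring. Its brightest probe set (1416769_s_at) gave 980, 983, 1084 and 841 in knockouts, against 1478, 1530, 1314 and 1521 in wild-types. All knockouts were lower, and the log2 fold change was -0.58 ± 0.10 (SE). The probe set 1437013_x_at also fell, by 0.65 on the log2 scale, with 555 to 739 in knockouts against 825 to 1070 in wild-types. The probe set 1425448_x_at overlapped between groups (343 to 495 in knockouts, 423 to 820 in wild-types) and was not called (-0.40 ± 0.18 SE, and -0.21 without wild-type replicate 1). The suffixes of these probe sets mark sequences that are not unique to 1 transcript, so signal from other transcripts in them cannot be told apart. The same limit holds for 1449622_s_at of Atp6ap1 and for 1437688_x_at and 1439456_x_at of Atp6ap2.

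Atp6v0d1 encodes the d subunit that couples the ring to the stalk of V1. Its probe set (1415671_at) gave 1010, 1027, 1205 and 929 in knockouts, against 1823, 1806, 1515 and 1891 in wild-types. Every knockout was below every wild-type, and the log2 fold change was -0.75 ± 0.10 (SE). Atp6v0d2, the d isoform known from osteoclasts and kidney, had 8, 23, 14 and 4 in knockouts and 23, 5, 25 and 16 in wild-types by its brighter probe set (1434798_at). The other (1444176_at) had 1 to 19 in knockouts and 4 to 23 in wild-types. Both were too dim to be tested.

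Among the brightest probe sets of the 7 tested members, those of the accessory subunits had the log2 fold changes nearest to 0. Atp6ap2, a membrane protein needed for pump assembly and also known as the prorenin receptor, gave 3337, 3748, 4071 and 4183 in knockouts, against 4907, 4554, 4559 and 4988 in wild-types (1437688_x_at). The groups did not overlap and the probe set was called lower (-0.31 ± 0.08 SE). The probe set 1423662_at was called lower too (-0.36 ± 0.09 SE), with 1469, 1492, 1751 and 1474 in knockouts, against 1807, 2120, 1894 and 2106 in wild-types. The probe set 1439456_x_at had 2635 to 3320 in knockouts and 3224 to 3713 in wild-types, and was not called (-0.26 ± 0.09 SE). The calls of 1437688_x_at and 1423662_at ended in 10 and 8 of 17 alternatives.

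Atp6ap1, also known as Ac45, helps to assemble the pump and to sort it within the cell. It had 869, 888, 922 and 941 in knockouts, against 1173, 1180, 859 and 1248 in wild-types (1449622_s_at). Wild-type replicate 3 lay below every knockout and the other wild-types lay above them, and the gene was not called (-0.28 ± 0.12 SE). Without wild-type replicate 3 it was called lower (-0.40).

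Promoters of Atp6v0b and Atp6v0d1, both called lower, are shown with those letters that resemble the E-box bound by TFE factors, regulators of lysosomal genes. They are RefSeq windows of build GRCm38.p6, with 250 bases before and 50 after the start, and capitals mark CACGTG or the longer TCACGTGA, which holds the first. Tcirg1 is included because that gene changed most, by a window that holds a match to a PLAG-type bipartite motif, marked by capitals. This motif is GGGGC or GAGGC, a spacer of 6 to 8 bases, then GGG. The 3 windows lie on the minus strand.
Atp6v0b, chr4:117887280-117887579: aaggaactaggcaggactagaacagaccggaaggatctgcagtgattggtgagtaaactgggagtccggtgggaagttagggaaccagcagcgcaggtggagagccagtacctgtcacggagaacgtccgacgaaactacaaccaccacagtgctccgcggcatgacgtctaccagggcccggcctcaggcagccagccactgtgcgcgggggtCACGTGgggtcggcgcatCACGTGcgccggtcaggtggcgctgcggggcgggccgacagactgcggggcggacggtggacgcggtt
Atp6v0d1, chr8:105566015-105566314: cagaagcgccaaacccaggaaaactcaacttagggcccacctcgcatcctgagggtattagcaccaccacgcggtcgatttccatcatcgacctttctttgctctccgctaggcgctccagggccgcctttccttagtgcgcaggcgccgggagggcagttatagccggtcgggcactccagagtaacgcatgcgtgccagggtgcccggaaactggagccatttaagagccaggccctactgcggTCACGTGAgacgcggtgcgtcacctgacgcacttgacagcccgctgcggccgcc
Tcirg1, chr19:3907084-3907383: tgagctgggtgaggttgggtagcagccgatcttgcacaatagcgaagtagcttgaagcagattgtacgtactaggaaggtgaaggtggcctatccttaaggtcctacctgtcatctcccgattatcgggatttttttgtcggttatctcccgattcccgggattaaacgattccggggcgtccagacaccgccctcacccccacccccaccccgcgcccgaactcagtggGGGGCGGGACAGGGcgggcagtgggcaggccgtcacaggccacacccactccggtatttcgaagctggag

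Each motif was searched on both strands in the 12 windows found for 8 of the 10 members. No window was found for Atp6v0a2, the member called higher, or for Atp6v0d2, so their promoters were not searched. CACGTG occurred in 2 of the 12 windows, those of Atp6v0b and Atp6v0d1, against 7.15% of all 32851 promoter windows. In Atp6v0b it began at bases -36 and -18, counted from the start as base 1 with no base 0. In Atp6v0d1 it began at base -3, within the longer TCACGTGA, which was in 0.974% of all windows. The windows of the other 6 members held neither. Of these, Tcirg1 was also called lower, as were 2 probe sets each of Atp6ap2 and Atp6v0a1. The PLAG-type motif occurred in 2 of the 12 windows, both of Tcirg1, against 22.7% of all windows. It began at base -20 of the window shown, which is the same site as base -170 of an overlapping window. The remaining Tcirg1 window, chr19:3905181-3905480, held no match. These matches describe the letters only.

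The pump genes outside the family were read by 1 probe set a gene, the brightest tested. Of all 12838 genes read in this way, 6.6% were called higher and 8.5% lower. The probe sets of Tmem199, Clcn5, Mcoln1 and Clcn3 have suffixes of the kind described for Atp6v0b, so the same limit holds for them. Of 7 tested genes for other V0 subunits and assembly factors, 4 were lower and 0 higher. They were Tmem199, an assembly factor (-0.49, adjusted p = 0.00574), Tm9sf4 (-0.45, 0.0165), the e subunit gene Atp6v0e (-0.45, 0.0167) and Rnasek, whose product associates with V0 (-0.39, 0.0304). The second e subunit gene, Atp6v0e2 (0.36), and the assembly factors Vma21 (-0.14) and Ccdc115 (-0.03) were not called. This count of 4 dropped to 1 when wild-type replicate 2 was left out, with the replicate block and on the 6 arrays with low Xist signal. It was 2 after leaving out knockout replicate 1, knockout replicate 2, wild-type replicate 1 or wild-type replicate 4.

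Of 10 tested genes of the V1 sector, 8 were lower and 0 higher. The V1 gene with the smallest p, Atp6v1b2, which encodes a subunit of the ATP-splitting head, had 860.5 ± 77.4 in knockouts and 2578 ± 295 in wild-types (SD, n = 4 each), a log2 fold change of -1.56 ± 0.10 (SE, limma adjusted p = 2.42e-06). Its partner in the head, Atp6v1a, fell by 0.81 on the log2 scale (adjusted p = 7.48e-05). Atp6v1h (-0.73), Atp6v1f (-0.54) and Atp6v1d (-0.93) were also lower. Atp6v1g2 (0.24) and Atp6v1e2 (-0.27) were not called. The median log2 fold change was -0.53 over the 10 V1 genes and -0.39 over the 7 tested members.

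Among 8 tested genes of the RAVE complex and TLDc proteins, which govern the joining of V1 to V0, 3 were lower and 1 higher. Dmxl2 (-1.15, adjusted p = 0.00148) and Wdr7 (-0.70, 0.00151), partners in the RAVE-like complex, and Ncoa7 (-0.62, 0.00675) were lower. Tbc1d24 was higher (0.57, 0.011). Of 10 tested ion channels and exchangers of endosomes and lysosomes, 8 were lower and 0 higher. They included the chloride exchangers Clcn5 (-1.08, adjusted p = 1.87e-05), Clcn7 (-0.73, 0.00323) and Clcn6 (-1.09, 0.0043). The calcium channel Mcoln1 (-1.03, adjusted p = 0.00206) and Tpcn1 (-0.60, 0.00605) were also lower. Clcn3 (0.35) and Clcn4 (-0.12) were not called.

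Of 9 tested genes for Ragulator, the Rag GTPases and the amino acid transporter Slc38a9, which meet the pump on lysosomes, 5 were lower and 0 higher. These were Rragc (-0.58), Lamtor3 (-0.62), Lamtor5 (-0.40), Lamtor4 (-0.45) and Lamtor1 (-0.31). Rraga (0.10), Rragd (0.10), Lamtor2 (-0.06) and Slc38a9 (-0.20) were not called. Of the 4 TFE factors, Tfec, known chiefly from macrophages (-1.52, adjusted p = 4.58e-07), and Tfeb (-1.14, 0.00352) were lower, while Mitf (-0.37) and Tfe3 (-0.06) were not called. Tfec had 582.75 ± 21.7 in knockouts and 1702 ± 74.7 in wild-types (SD, n = 4 each).

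**Figure D4:**
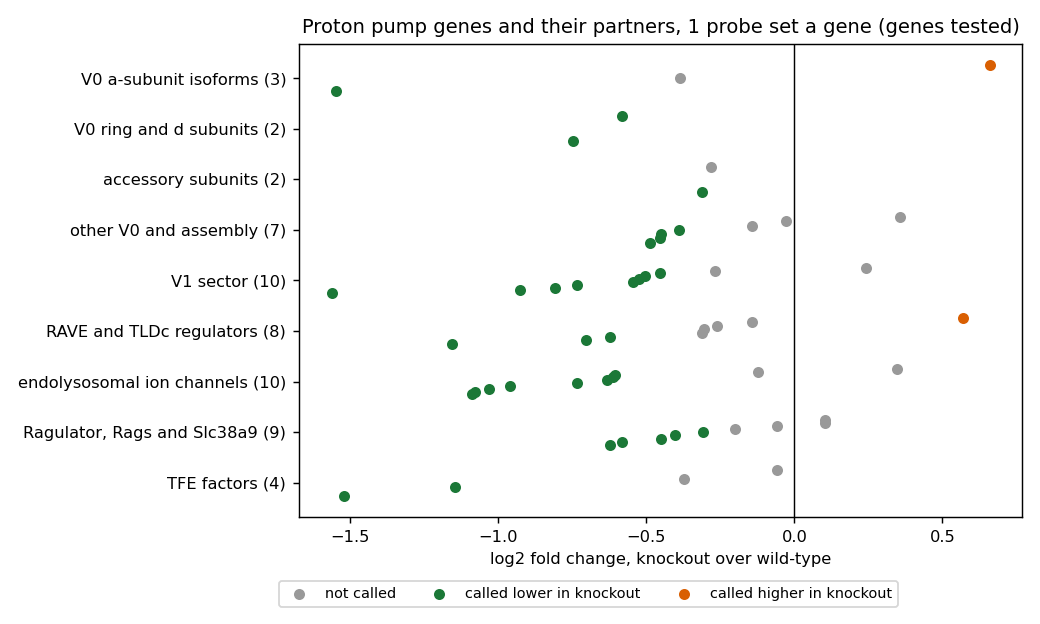
Log2 fold change, knockout over wild-type, of each tested gene of the V0 groups and of related lists, 1 probe set a gene, with the number of tested genes in brackets and colours for the call. Called genes lie to the left of 0 in every list, apart from Atp6v0a2 among the a-subunit isoforms and Tbc1d24 among the regulators.

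The genes with the profiles nearest to the members at both ends were taken from all 12838 genes, by the root mean square difference of log2 profiles over the 8 arrays, each centred on its own mean. Nearest to Atp6v0a2 were Ifngr1 (0.070), Mapk13 (0.076), Tdp2 (0.079), Rhob (0.080) and Gfpt1 (0.080), with log2 fold changes of 0.57 to 0.75. Nearest to Tcirg1 were Hif3a (0.085), Asl (0.089), Mapkapk3 (0.097), Mov10 (0.118) and Bach1 (0.119), with log2 fold changes of -1.64 to -1.42.

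Several features of the arrays moved with the genotype or stood apart. The log2 signal of control probe sets at the 3' end minus that at the 5' end averaged 0.048 ± 0.035 in knockouts and -0.016 ± 0.029 in wild-types (SD, n = 4 each; exact permutation p = 0.0286, two-sided, the smallest that 4 against 4 allow). With this control value as a covariate 0 member probe sets were called higher and 4 lower, namely those of Tcirg1 and Atp6v0d1 and the 2 called Atp6v0b probe sets. With the same covariate the counts of lower genes were 5 for V1, 3 for the ion channels, 2 for the Ragulator list, 2 for TFE factors, 0 for other V0 and assembly genes, and 1 for the regulators, with Tbc1d24 no longer called. The median log2 fold changes in that fit were -0.53 for V1, -0.75 for the ion channels and -0.43 for other V0 and assembly genes, and -0.16 for the Ragulator list, against -0.31 without the covariate. With the replicate block, 2 genes of the Ragulator list and 5 ion channels were lower. Knockout replicates 2 and 3 had Xist signals of 1828 and 1410, against at most 47 on the other arrays. Among the 6 arrays with low Xist, 1 member probe set, of Atp6v0a2, was higher and 6 were lower. Atp6ap1 and Atp6ap2 lie on the X chromosome, and on those 6 arrays their brightest probe sets had log2 fold changes of -0.28 and -0.34, both without a call, while 1423662_at of Atp6ap2 was called lower (-0.42).

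Wild-type replicate 3 gave the lowest wild-type value in 10 of the 16 tested member probe sets, and knockout replicate 3 the highest knockout value in 9. The same shares over all tested probe sets were not counted. On the first principal component of all tested probe sets, wild-type replicate 3 lay at -21.9. The other wild-types lay at -44.7 to -43.3, and the knockouts at 35.7 to 40.7. Leaving out wild-type replicate 3 gave 3 higher and 9 lower member probe sets. The count of lower member probe sets was 5 without knockout replicate 1 or 2 or wild-type replicate 2 or 4. The 10 epithelial markers, among them Vil1, Cdh1 and Epcam, were all bright enough to be tested, with summed signals of 33763 to 41772 in knockouts and 31960 to 36222 in wild-types. Such a sum gives most weight to the brightest markers, such as Fabp2, with means of 10217.5 in knockouts and 10392 in wild-types. Krt20 was higher (log2 fold change 2.55) and Cdx1 lower (-1.01), and the other 8 were not called. In the neuron, smooth muscle, kidney intercalated cell, gastric parietal cell, pancreatic acinar cell, hepatocyte and erythroid lists 0 tested genes were called. Over all genes tested, 6.6% were called higher and 8.5% lower. Only 1 gene was tested in each of the kidney and gastric lists. Smooth muscle markers had log2 fold changes of 0.07 to 0.61, and their sums overlapped (8384 to 13461 in knockouts, 6738 to 10911 in wild-types). Neuron markers had a median of 0.35, with Ret and Tubb3 below 0. The hepatocyte markers summed to 7415 in knockout replicate 4, against a lowest knockout sum of 70 and 462 to 633 in wild-types. Pancreatic acinar markers summed to 517 to 3969 in knockouts and 294 to 2550 in wild-types. With such a spread within groups, a lack of calls cannot show that the samples were alike in these markers. Beyond the refits above, the part of the control value and of sex, read here by Xist alone, in the members' values was not tested.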

How the data were processed

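Fetal small-intestinal RNA (4 Plagl2 knockout, 4 wild-type) was copied with an oligo-dT primer, labelled with biotin and hybridised to Affymetrix MOE430 2.0 arrays, per the labels. The authors deposited 1 signal intensity for each of 45101 probe sets and array, on a linear scale. The mean of each array, after trimming 2% at each end, is about 150.05, so each array had been scaled before deposit. How the signal was computed is not given in the sources used here. Detection calls were not used.

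Of all probe sets, 34958 had 1 gene symbol in the platform annotation, 932 several and 9211 none. By Entrez ID, 34754 of those with 1 symbol were found in the RefSeq table of GRCm38.p6, and 0 symbols changed. The members and lists were chosen with earlier results of these data known. Signals were transformed as log2(signal + 16). The authors' scaling was kept, because the spread of the log2 array medians (0.158) was within the allowed 0.32. Leaving out 64 control probe sets and the dimmest 40% by mean gave 27022 probe sets, to which limma 3.58.1 (R 4.3.3) fitted genotype as the only term, with eBayes and an intensity trend. Calls were made at a two-sided Benjamini-Hochberg adjusted p under 0.05. A gene is represented by its brightest tested probe set. The genes named are all members, up to 5 called genes per list with the smallest p (or up to 3 where none was called), the 5 nearest profiles of the 2 extreme members, and Plagl2. Beyond these, the list genes given as not called and the marker genes were named after their values were seen. The fit was tested on simulated data. Precision is limited by the number of arrays.

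The fit was repeated without a filter, with 60% of probe sets filtered out, after quantile normalization, with an offset of 1 or 64, blocked by replicate number, with the control 3' minus 5' value as a covariate, on the arrays with Xist signal under 200, without the intensity trend, on the mean of a gene's probe sets, and without each array. Motifs were searched with Python 3.11.15 in RefSeq promoter windows. RefSeq windows were found for 8 members, and none for Atp6v0a2 or Atp6v0d2.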

Additional observations from a re-analysis of the deposited data

Results flagged for a closer look

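In groups of 4 arrays, a value was singled out when its gap to the nearest other value, on the log2 scale, exceeded Dixon's critical value for 4 values as a share of the group's range. This test picks out about 1 group in 20 by chance, and 38 groups of member probe sets were examined. It picked out 3 values. Atp6v0a1 (1417632_at) gave 89 in knockout replicate 2, where the other knockouts had 142 to 151. Atp6ap2 (1423662_at) gave 1751 in knockout replicate 3, where the other knockouts had 1469 to 1492. Atp6ap1 (1449622_s_at) gave 859 in wild-type replicate 3, where the other wild-types had 1173 to 1248, and that array decided whether the gene was called. The causes were not tested.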

How the results depend on the processing

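None of the 16 tested member probe sets changed direction under the alternatives run. Tcirg1, Atp6v0d1 and the 2 called Atp6v0b probe sets kept their calls in all 17 alternatives, with log2 fold changes of -1.64 to -1.33 for Tcirg1 and -0.84 to -0.69 for Atp6v0d1. Of the 3 higher and 8 lower member probe sets, 0 and 4 were called with the control 3' minus 5' value as a covariate, where 471 probe sets in all were higher and 919 lower, against 1427 and 1811 in the fit reported. The replicate block left 5 lower member probe sets, and 751 higher and 1164 lower probe sets in all. Deviations of same-numbered arrays correlated at -0.27 to -0.01, and those of arrays with different numbers at -0.07 to 0.18. These values show no pairing by replicate number but cannot exclude one, and the labels used here give no litter. Without an intensity trend 5 member probe sets were lower. On the arrays with low Xist 1 was higher, and 807 probe sets in all were higher. With 1 array left out, 5 to 9 member probe sets were lower, and of all probe sets 876 (without knockout replicate 2) to 2085 (without wild-type replicate 3) were higher, and 920 without wild-type replicate 1. With an offset of 64, the change of Tcirg1 relative to the other members was -0.87 in place of -1.07, which follows from the larger added constant. The causes of the other changes were not tested. Signals under about 23.0 on average were not tested, which left out Atp6v0a4 and Atp6v0d2.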
